A study of Mus musculus with 24 samples.

Results

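The regions described here were 3896 stretches of open chromatin in the mouse amygdala that were more accessible in non-neuronal nuclei than in neurons. They were taken from the 266399 deposited ATAC peaks on chromosomes 1 to 19. Counts were summed over all non-neuronal (NN), all excitatory (Exc) and all inhibitory (Inh) cell types, and each class was scaled to a class total of 1000000 counts (CPM). A peak was kept when its non-neuronal level was at least 2 CPM and at least 4 times both the excitatory and the inhibitory level. The same rule applied to the other classes gave 3723 excitatory-specific and 1228 inhibitory-specific peaks.

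The tissue was the microdissected amygdala of adult male mice of the inbred strains DBA and BL6, aged 10 to 16 weeks and with no treatment named. Each strain gave 2 libraries for single-nucleus ATAC and 2 for single-nucleus RNA, and each library pooled tissue of about 2 animals. Nuclei for RNA were sorted to 75% NeuN-positive and 25% NeuN-negative, NeuN being a marker of neuronal nuclei, whereas nuclei for ATAC were sorted on the DNA dye 7-AAD without NeuN. The ATAC libraries held 66535381 to 86927891 counts, and the RNA libraries 30693629 to 66304405. The libraries are named by their numbers in the tables, 2 and 3. The p-values below measure the spread between libraries of pooled animals.

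Open chromatin marks promoters and distal elements where transcription factors can bind, and much of what tells one cell type from another lies in distal elements. The non-neuronal cells of the amygdala are mainly astrocytes, which take up transmitters and supply metabolites, microglia, which are the resident macrophages, oligodendrocytes, which make myelin, and the oligodendrocyte precursors from which these arise. SOX and OLIG factors act in the oligodendrocyte lineage, NFI factors and SOX9 in astrocytes, and PU.1 and IRF8 in microglia.

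The promoters below are shown because each lies in or at a member and its gene is named in the results, with up to 2 genes for each glial type. They run from 250 bases before to 50 bases after the gene start, come from RefSeq on GRCm38.p6, the assembly also called mm10, and read 5′ to 3′ on the strand of the gene. Capitals mark matches, on either strand, to the SOX letters ACAAAG or ACAATG, the NFI letters TTGGCA, the PU.1 letters GAGGAAGT, the E-boxes CAGATG or CAGCTG, or an IRF motif. The promoters of Ndrg2 (chr14:51913955-51914254, minus strand) and Aldh1l1 (chr6:90550543-90550842, plus strand) lay wholly inside members with their highest accessibility in astrocytes.
Ndrg2: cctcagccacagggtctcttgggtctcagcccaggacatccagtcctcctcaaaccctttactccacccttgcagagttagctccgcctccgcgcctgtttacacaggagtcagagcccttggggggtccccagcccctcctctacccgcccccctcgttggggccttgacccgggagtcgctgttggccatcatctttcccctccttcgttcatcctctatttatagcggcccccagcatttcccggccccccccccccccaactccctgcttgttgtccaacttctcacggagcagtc
Aldh1l1: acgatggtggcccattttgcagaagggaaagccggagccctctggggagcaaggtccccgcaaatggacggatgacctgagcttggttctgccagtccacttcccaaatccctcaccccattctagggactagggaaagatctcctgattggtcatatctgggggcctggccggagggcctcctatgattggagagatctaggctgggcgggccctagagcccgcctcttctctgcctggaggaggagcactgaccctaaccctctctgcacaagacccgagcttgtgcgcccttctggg
The promoter of Sh3tc1 (chr5:35729227-35729526, minus strand) lay inside a member highest in microglia among the glial types, and that of Arhgap45 (chr10:80016422-80016721, plus strand) overlapped one by 170 bases.
Sh3tc1: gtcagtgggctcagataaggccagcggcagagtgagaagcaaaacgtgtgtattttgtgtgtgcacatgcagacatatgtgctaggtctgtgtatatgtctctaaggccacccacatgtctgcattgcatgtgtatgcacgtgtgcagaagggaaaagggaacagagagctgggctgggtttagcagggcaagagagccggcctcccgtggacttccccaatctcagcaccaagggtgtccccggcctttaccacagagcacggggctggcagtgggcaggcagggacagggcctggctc
Arhgap45: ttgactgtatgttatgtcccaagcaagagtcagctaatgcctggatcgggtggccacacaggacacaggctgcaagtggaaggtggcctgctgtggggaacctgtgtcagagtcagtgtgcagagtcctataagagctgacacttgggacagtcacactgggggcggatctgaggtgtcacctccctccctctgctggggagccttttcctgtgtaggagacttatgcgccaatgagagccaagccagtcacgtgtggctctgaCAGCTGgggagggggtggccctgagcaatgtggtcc
The promoter of Rassf2 (chr2:132030275-132030574, minus strand) lay inside a member highest in oligodendrocytes, and that of Mag (chr7:30914814-30915113, minus strand) overlapped one by 217 bases.
Rassf2: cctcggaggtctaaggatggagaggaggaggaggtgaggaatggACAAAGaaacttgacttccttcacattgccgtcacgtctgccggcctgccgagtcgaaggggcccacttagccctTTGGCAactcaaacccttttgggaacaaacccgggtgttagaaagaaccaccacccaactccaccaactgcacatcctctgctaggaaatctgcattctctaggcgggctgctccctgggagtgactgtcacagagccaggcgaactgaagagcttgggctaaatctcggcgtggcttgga
Mag: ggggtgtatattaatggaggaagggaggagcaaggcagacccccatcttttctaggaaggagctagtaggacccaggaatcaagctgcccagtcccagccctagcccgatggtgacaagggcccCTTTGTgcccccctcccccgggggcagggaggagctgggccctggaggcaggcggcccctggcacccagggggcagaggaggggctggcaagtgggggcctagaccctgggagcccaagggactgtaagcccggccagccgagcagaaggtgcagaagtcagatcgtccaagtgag
The promoters of Olig2 (chr16:91225300-91225599, plus strand) and Myt1 (chr2:181796057-181796356, plus strand) overlapped members highest in precursors by 114 and 140 bases.
Olig2: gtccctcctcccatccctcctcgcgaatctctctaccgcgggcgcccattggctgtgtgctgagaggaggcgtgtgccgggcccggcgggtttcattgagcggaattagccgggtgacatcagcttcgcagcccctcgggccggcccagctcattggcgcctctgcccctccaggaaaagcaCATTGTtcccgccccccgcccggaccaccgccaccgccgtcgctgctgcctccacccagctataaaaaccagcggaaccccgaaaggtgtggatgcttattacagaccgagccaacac
Myt1: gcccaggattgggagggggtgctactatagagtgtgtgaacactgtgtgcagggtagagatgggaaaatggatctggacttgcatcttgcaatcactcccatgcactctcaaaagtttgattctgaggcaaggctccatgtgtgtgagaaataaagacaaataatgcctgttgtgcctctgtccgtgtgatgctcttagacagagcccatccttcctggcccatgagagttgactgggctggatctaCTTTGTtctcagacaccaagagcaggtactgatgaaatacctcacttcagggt
Matches were found in 5 of these 8 promoters. Each of the letter strings alone was in 3.25% to 18.6% of all promoters. The share of all promoters with any of them was not computed, so this count says nothing particular to members. Counted from the gene start, the SOX letters began at -126 in the Mag promoter and at -206 in the Rassf2 promoter, inside the members. They began at -3 in the Myt1 promoter and at -68 in the Olig2 promoter. These last positions lie in the part of the promoter that the member did not cover. A match is a string of letters and not a measured binding site.

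The values that chose the members are given as a description. Members had a median of 7.49 CPM in non-neuronal nuclei, with a range of 2.12 to 79.97 CPM, against a median of 0.723 CPM in excitatory and 0.896 CPM in inhibitory neurons. The median ratio was 8.79 to excitatory and 7.15 to inhibitory neurons. These levels rest on 448 non-neuronal nuclei with 6140122 counts, against 10172 excitatory nuclei with 172869834 counts and 8490 inhibitory nuclei with 127268399 counts. A member therefore rested on a median of 46 non-neuronal counts, with a range of 13 to 491. Members held 3.92% of non-neuronal, 0.421% of excitatory and 0.511% of inhibitory counts.

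Members close to a threshold were hardly different from peaks left out. The lowest members had 2.12 CPM, which is 13 counts, and the highest peaks kept out by that threshold had 1.95 CPM, which is 12 counts. A peak 539 bases from the start of Sox10, the lineage factor of oligodendrocytes, entered with a smaller ratio of 4.00001, and a peak on chromosome 15 stayed out with 3.99946.

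Most members were counted in every library. All 4 libraries had a count at 3772 members (96.8%), 3 members were at 0 in both DBA libraries and 0 members were at 0 in both BL6 libraries. The median member had 4.76 and 8.12 CPM in DBA libraries 2 and 3, against 8.996 and 7.58 CPM in BL6 libraries 2 and 3. DBA library 2 was the lowest and stood apart in makeup too, with 7 astrocyte nuclei among 67 non-neuronal nuclei. Astrocytes gave 12.7% and 39.2% of non-neuronal counts in DBA libraries 2 and 3, against 43.8% and 27.4% in BL6 libraries 2 and 3. When the rule was applied to the DBA libraries alone it took 4022 peaks, 3261 of them members, and applied to the BL6 libraries alone it took 4251, 3456 of them members.

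By cell type, members were most often highest in astrocytes. Pooled over libraries there were 146 astrocyte (NN-Astro), 97 microglial (NN-MGC), 75 oligodendrocyte (NN-ODC) and 111 precursor (NN-OPC) nuclei, and 7 NN-Endo-SMC-Peri, 9 NN-Endo-VLMC and 3 NN-VLMC nuclei. Astrocytes gave 47.8% of the counts in members but 30.2% of all non-neuronal counts, and microglia gave 10.4% and 24.3%. Precursors gave 27.6% of the counts in members and 26.4% of all, and oligodendrocytes 12.4% and 14.3%. Within a type, members took 6.20% of astrocyte, 4.09% of precursor, 3.42% of oligodendrocyte and 1.68% of microglial counts. The class sum weights types by their counts, and with types weighted equally the rule took 4862 peaks, of which 1955 were members.

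The leading type of a member is the type with its highest CPM. Of 6 types with enough counts, astrocytes led 1829 members, precursors 693, oligodendrocytes 633, microglia 404, NN-Endo-VLMC 175 and NN-Endo-SMC-Peri 162. The vascular leads rested on a median of 2 counts in that type, so the leads that follow are among the 4 glial types unless stated. There astrocytes led 1955, precursors 734, oligodendrocytes 679 and microglia 528, a choice of types made after the data were seen. The lead was clear, at least 2 times the next glial type, for 2264 members. Of these, 2196 (97.0%) had the same lead when it was found from each strain alone, and 2122 (93.7%) had it in 3 or 4 of the 4 libraries. In all 4 libraries the lead was the same for 1424. The pooled counts that set the lead hold these same libraries, so much of this agreement was fixed in advance.

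Members led by microglia were the most closed in the other glia. Microglia-led members had a median of 13.7 CPM in microglia and at most 1.23 CPM in any other glial type. Astrocyte-led members had a median of 20.5 CPM in astrocytes and 4.32 CPM in precursors, oligodendrocyte-led ones 20.5 CPM in oligodendrocytes and 6.78 CPM in precursors, and precursor-led ones 17.9 CPM in precursors with 5.71 CPM in oligodendrocytes and 5.39 CPM in astrocytes. The second type was the precursor for 63.2% of astrocyte-led and 66.7% of oligodendrocyte-led members. At 2 CPM or more, 676 members (17.4%) were open in 1 glial type, 1013 in 2, 1345 in 3 and 862 in all 4. A single count is 1.14 CPM in oligodendrocytes and 0.539 to 0.670 CPM in the other glial types. This threshold therefore rests on few counts, and on fewest in oligodendrocytes.

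**Figure D1:**
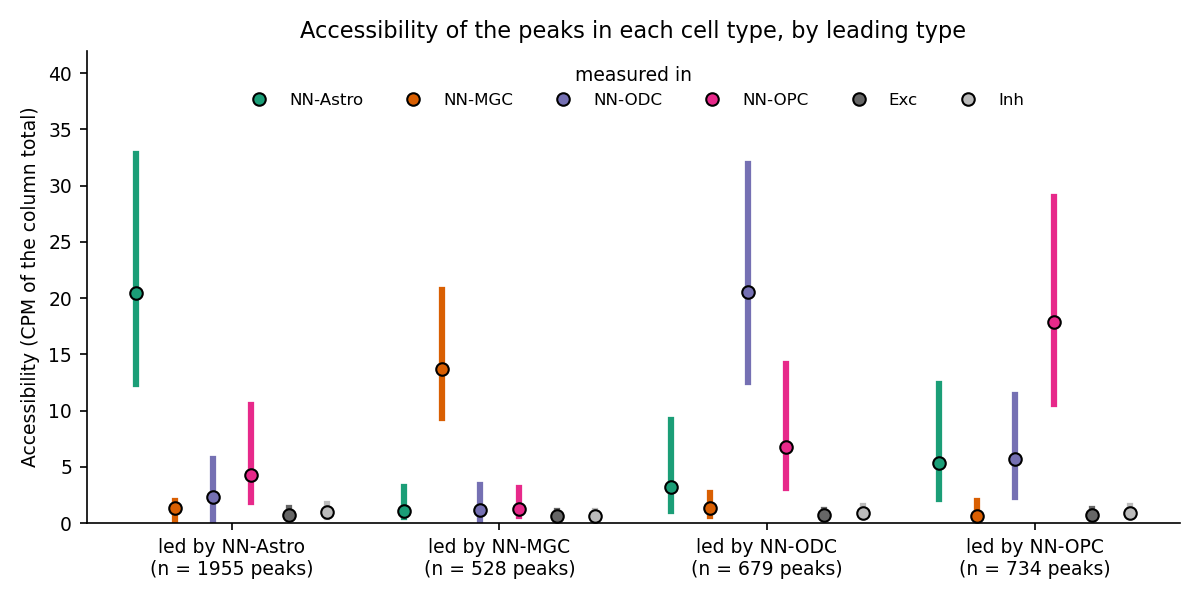
Accessibility in CPM of each glial type, excitatory neurons (Exc) and inhibitory neurons (Inh), for members grouped by leading glial type on the x axis; points are medians over peaks and lines run from the lower to the upper quartile. Microglia-led members (n = 528) have their other glial medians at 1.23 CPM or below, while precursors reach 6.78 CPM in oligodendrocyte-led members (n = 679).

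The types were checked against transcripts of marker lists. The 13 astrocyte markers summed to 8763 CPM of RNA in NN-Astro and at most 633 CPM in the other glial types, and the 14 microglial markers to 10830 CPM in NN-MGC and at most 232 CPM elsewhere in glia. The 13 oligodendrocyte markers summed to 10880 CPM in NN-ODC and at most 683 CPM in other glia. The 10 precursor markers summed to 8626 CPM in NN-OPC and at most 302 CPM in other glia, and Lhfpl3 alone gave 5940 CPM of the sum in NN-OPC. The precursor list also summed to 579 CPM in excitatory and 521 CPM in inhibitory neurons. Accessibility within 1 kb of the starts separated the types less. The microglial list summed to 293 CPM in NN-MGC, against 169 CPM in NN-Astro, 108 CPM in NN-ODC and 104 CPM in NN-OPC. Sall1 alone gave 97.0 CPM of the sum in NN-Astro. The astrocyte list summed to 478 CPM in NN-Astro and at most 162 CPM in other glia. The oligodendrocyte list summed to 350 CPM in NN-ODC and at most 115 CPM in other glia. The precursor list separated least, at 355 CPM in NN-OPC, 264 CPM in NN-ODC and 249 CPM in NN-Astro. The 5 markers of all neurons summed to 100.8 CPM of accessibility in non-neuronal nuclei, against 202 CPM in excitatory and 213 CPM in inhibitory neurons, and the part of these neuronal levels in the members was not tested. Of the neuronal, endothelial, ependymal and leptomeningeal marker genes, 0 had a member within 2 kb of the start. For neuronal genes the rule itself disfavours such members. Members within 2 kb of a start had 620 nearest genes among all 33073 annotated genes. In lists this short, 0 is therefore no result about these genes.

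Members within 2 kb of a start were found at 5 of 13 astrocyte, 3 of 14 microglial and 3 of 13 oligodendrocyte marker genes. They were also found at 5 of 10 precursor and 1 of 9 pericyte and smooth muscle marker genes. Over all 33073 annotated genes, 620 were nearest to a member within 2 kb. The pericyte and smooth muscle gene was Notch3, but its member was led by astrocytes. It had 14.0 CPM in astrocytes, against 8.96 CPM from 1 count in NN-Endo-SMC-Peri. Notch3 RNA was 69.4 CPM in astrocytes and at most 4.06 CPM in the other glial types. The astrocyte genes were Aldh1l1, a folate enzyme, Fgfr3, a growth factor receptor, Slc7a10, an amino acid transporter, Agt, which encodes angiotensinogen, and Gjb6, which encodes the gap junction protein connexin 30. The member at Aldh1l1 had 32.3 CPM in astrocytes, 4.69 CPM in microglia and 2.47 CPM in precursors, against 0.700 CPM in excitatory and 0.676 CPM in inhibitory neurons. Astrocytes led all 6 members at these genes. In the non-neuronal sum the member at Aldh1l1 had 4.08 and 18.8 CPM in the DBA libraries, against 20.4 and 6.49 CPM in the BL6 libraries. The strains overlapped, and the spread within each strain was large.

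The microglial genes were Tmem119 and Siglech, which encode surface proteins of microglia, and Sall1, a transcription factor of microglial identity. The member at Siglech had 16.1 CPM in microglia and at most 1.08 CPM in another glial type, and the member at Tmem119 had 14.1 CPM in microglia and at most 1.85 CPM in another. The member at the start of Sall1 was open in all glia, at 97.0 CPM in astrocytes, 79.0 CPM in microglia, 47.9 CPM in oligodendrocytes and 46.9 CPM in precursors. Its RNA was highest in microglia, at 298 CPM, against 24.9 CPM in astrocytes.

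The oligodendrocyte genes were Mag, a myelin adhesion protein, Ermn, a cytoskeletal protein of oligodendrocytes, and Sox10. The member at Mag had 37.7 CPM in oligodendrocytes, 4.32 CPM in precursors and at most 0.670 CPM in astrocytes or microglia. The member at Ermn had 33.1 CPM in oligodendrocytes and 0 counts in precursors. In the non-neuronal sum the Mag member had 4.77 and 7.498 CPM in the DBA libraries, against 7.36 and 8.12 CPM in the BL6 libraries. The strains overlapped at Mag.

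The precursor genes were Olig1 and Olig2, transcription factors of the lineage, Gpr17, a receptor of committed precursors, C1ql1, a secreted C1q-like protein, and Nkx2-2, a homeobox factor. Olig2 had 3 members within 2 kb of its start and Olig1 had 2. The member over the Olig2 promoter had 36.4 CPM in precursors, 27.4 CPM in oligodendrocytes, 25.9 CPM in astrocytes and 0.670 CPM in microglia. The member over the Olig1 start was led by astrocytes at 77.0 CPM, with 71.9 CPM in oligodendrocytes and 46.3 CPM in precursors, while Olig1 RNA was at 79.0 CPM in precursors, 62.5 CPM in oligodendrocytes and 7.45 CPM in astrocytes. The member 33.6 kb from Olig1 had 83.9 CPM in precursors, 47.9 CPM in oligodendrocytes, 5.93 CPM in astrocytes and 0 counts in microglia.

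Each member is described here under its leading type among 6, and the most accessible ones included promoters and distal peaks. Among astrocyte-led members the highest covered the start of Ndrg2, an astrocyte-enriched gene, at 131 CPM, and another lay 44.8 kb from Mfge8, a secreted protein that bridges dying cells to phagocytes, at 125 CPM. Among microglia-led members the highest were at the start of E330020D12Rik, at 77.7 CPM in microglia pooled over strains that differed at this peak, and in the gene body of Csf1r, the receptor that microglia need to survive, at 71.7 CPM. Among oligodendrocyte-led members a peak on chromosome 14, 22.8 kb from Gm30438, reached 118 CPM, and members 8.18 kb from Tmbim1 and at the start of Rassf2, a Ras-association protein, reached 93.6 and 92.4 CPM. Among precursor-led members a peak on chromosome 15, 21.6 kb from Gm52189, reached 88.2 CPM, and a member in Arhgap31, which restrains the GTPases Rac1 and Cdc42, reached 85.7 CPM. The Rassf2 member was open at 65.6 to 92.4 CPM in all 4 glial types.

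Some genes had several members. By nearest start within 100 kb, members had 2848 nearest genes, and of all 3041 nearest genes 546 had 2 or more members and 38 had 4 or more. Olig1 had 7 members among its 12 peaks. Htra1, a secreted serine protease, had 6 among 16, all led by astrocytes, and Zhx2, a transcriptional repressor, had 5 among 37, all led by astrocytes. Gab1, a signalling adaptor, and Zcchc24 had 5 each, of which precursors led 3. Htra1 RNA averaged 236 ± 46.4 CPM in non-neuronal nuclei, against 4.85 ± 2.68 CPM in excitatory and 8.20 ± 3.04 CPM in inhibitory nuclei (SD, n = 4 libraries), a log2 difference of 5.52 ± 0.18 (SE) to excitatory nuclei with adjusted p = 1.17e-09 by edgeR's quasi-likelihood test. The 12 genes listed with the most members that carry a full name, chosen after their values were seen, all had higher RNA in non-neuronal nuclei than in either neuronal class, where 32.7% of all 20840 genes tested did. Aldh1l1, Csrp1 and Dock1 closed this list with 4 members each. As 38 nearest genes had 4 or more, the cut at 12 can fall within a tie, and the 12 do not stand for that whole group.

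Members lay closer to gene starts than neuronal-specific peaks did. Of members, 14.3% lay within 1 kb of a start and 39.3% within 10 kb, against 2.85% and 18.3% of excitatory-specific, 2.69% and 18.3% of inhibitory-specific and 8.96% and 28.7% of all peaks. A start lay inside 8.29% of members, 1.02% of excitatory-specific, 0.977% of inhibitory-specific and 6.02% of all peaks. Beyond 100 kb were 7.88% of members, 29.5% of excitatory-specific, 26.6% of inhibitory-specific and 17.1% of all peaks. The median member was 403.5 bases wide, against 635, 563 and 476 bases, and 62.4% lay in a gene body, against 40.0%, 45.8% and 62.1%. Among leading types, 20.5% of microglia-led members lay within 1 kb of a start, 15.4% of astrocyte-led, 13.1% of oligodendrocyte-led and 8.23% of precursor-led ones, by the lead among 6 types. These shares are descriptions, since peaks are not replicates.

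**Figure D2:**
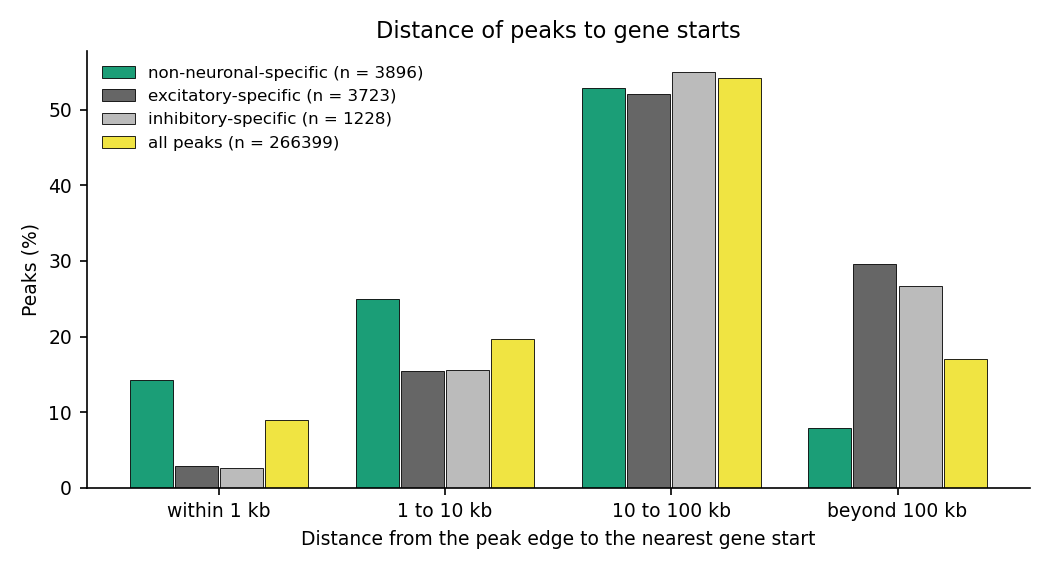
Share of peaks, in percent on the y axis, by distance from the peak edge to the nearest gene start, for non-neuronal-specific, excitatory-specific, inhibitory-specific and all peaks on chromosomes 1 to 19. Beyond 100 kb lie 7.88% of the 3896 members, against 29.5% of excitatory-specific and 17.1% of all peaks.

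Promoters at members held fewer CpG dinucleotides than open promoters in general. A member covered at least 150 of the 300 bases of 295 RefSeq promoters, and any peak covered 16349 of all 31396. The median number of CpG dinucleotides was 8 at members, against 20 at all covered promoters and 7 at all promoters. It was lower still at the few promoters covered by neuronal-specific peaks, 2.5 at 30 excitatory-specific and 4 at 10 inhibitory-specific ones. GC content was 58.0% at members, against 60.7% of covered and 53.0% of all promoters. The E-box CAGCTG was in 24.4% of promoters at members, 16.2% of covered and 16.3% of all promoters, and the NFI letters TTGGCA in 21.0%, 11.5% and 14.1%. At excitatory-specific peaks each of these was in 20% of the 30 promoters, within the interval of the members. The ETS letters CCGGAAGT were in 1.02%, 6.80% and 3.95%. Motifs were sought on both strands.

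Motif shares by leading type rest on few promoters. The SOX letters ACAAAG were in 36.2% of the 47 promoters at oligodendrocyte-led members, with a 95% Wilson interval of 23.97% to 50.5%, against 18.6% of all promoters. They were in 17.6% of the 176 at astrocyte-led, 18.4% of the 49 at microglia-led and 26.1% of the 23 at precursor-led members. At inhibitory-specific peaks they were in 40% of 10 promoters, with an interval of 16.8% to 68.7%, and at excitatory-specific peaks in 16.7% of 30. The share at oligodendrocyte-led members was therefore not particular to them. The PU.1 letters GAGGAAGT were in 12.2% of the 49 at microglia-led members, with an interval of 5.74% to 24.2%, against 3.25% of all promoters, and the IRF motif in 18.4%, with an interval of 9.98% to 31.4%, against 3.46%. The NFI letters were in 23.3% of those at astrocyte-led members, with an interval of 17.7% to 30.1% that took in the 21.7% at precursor-led and 19.1% at oligodendrocyte-led members, and in 14.3% at microglia-led members. These intervals cover counting error only, and base composition differed between the sets.

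A few members lay at microRNA genes. Of 1005 RefSeq hairpins, 13 had a member within 2 kb, involving 11 members, and 520 had any peak there. The hairpin Mir219a-2, whose product promotes the maturation of oligodendrocytes, lay 149 bases from a member at chr2:29845876-29846524. That member had 59.4 CPM in oligodendrocytes, 33.9 CPM in precursors, 7.00 CPM in astrocytes and 1.34 CPM in microglia. In the non-neuronal sum it had 31.3 and 11.9 CPM in the DBA libraries, against 16.4 and 21.1 CPM in the BL6 libraries, so the strains overlapped. The mature products of Mir219a-2 and of Mir152, whose hairpin lies in an astrocyte-led member, are shown with bases 2 to 8, the seed, in capitals, and their seeds differ.
mmu-miR-219a-5p: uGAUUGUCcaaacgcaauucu
mmu-miR-152-3p: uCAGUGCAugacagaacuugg

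The RNA libraries, which the rule did not use, tested whether genes at members had more RNA in non-neuronal nuclei. Genes nearest to a member within 10 kb were mostly higher there: of 735 genes tested, 570 (77.6%) were higher than in both neuronal classes and 73 (9.93%) lower, where 32.7% and 33.3% of all 20840 genes tested were called. The median log2 difference of these genes was 2.52 to excitatory and 2.52 to inhibitory nuclei, against -0.01 to each over all genes. Within 2 kb, 320 of 372 genes (86.0%) were higher, and within 100 kb, 1029 of 1604 (64.2%). Of genes within 10 kb of excitatory-specific peaks 72 of 258 (27.9%) were higher in non-neuronal nuclei, of those at inhibitory-specific peaks 16 of 79 (20.3%), and of genes within 10 kb of any peak 36.3%. A gene was called at adjusted p under 0.05 against both classes, by edgeR with library as a block, and members had 1335 nearest genes within 10 kb, of which 919 matched the RNA table and 735 passed the filter on low counts.

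**Figure D3:**
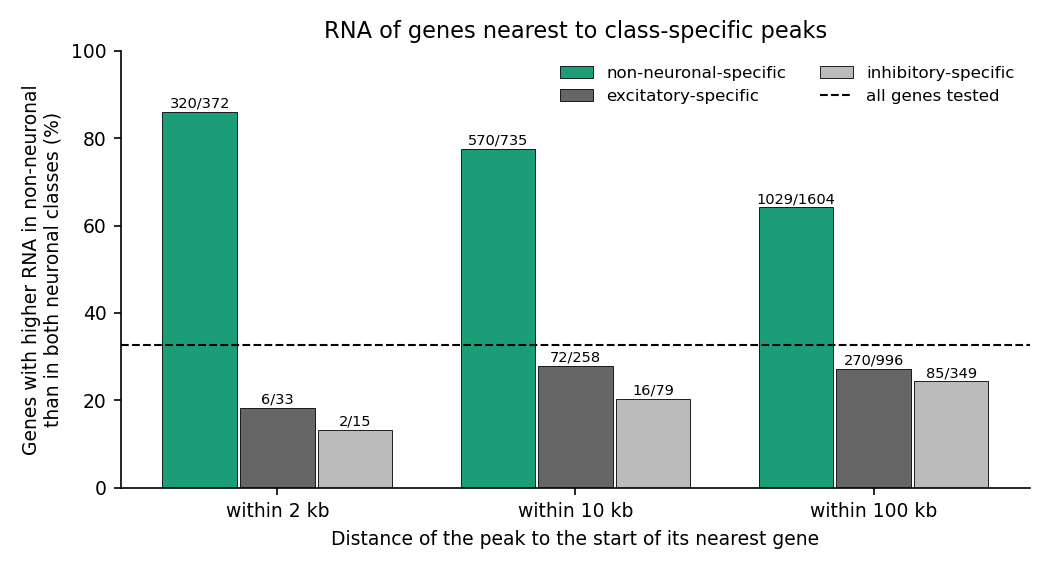
Percent of tested genes with higher RNA in non-neuronal nuclei than in both neuronal classes, by distance of the peak to the start of its nearest gene; labels give genes called over genes tested and the dashed line is the share over all genes tested. Genes at non-neuronal-specific peaks reach 86.0% within 2 kb and 64.2% within 100 kb, against 32.7% of all genes.

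RNA of genes at members was also set against the leading type of the member. For members with a clear lead among 6 types within 10 kb of a start, 115 of 148 genes at astrocyte-led members (77.7%) had higher RNA in astrocytes than the mean of the other non-neuronal types, against 25.3% of all 14263 genes. The counts were 40 of 44 (90.9%) for microglia, against 27.7% of all genes, 42 of 44 (95.5%) for oligodendrocytes, against 25.2%, and 12 of 17 (70.6%) for precursors, against 27.8%. With no filter on low counts the precursor count was 12 of 29 (41.4%), against 16.4% of all genes. In other types the shares were lower: of genes at microglia-led members, 13.6% were higher in astrocytes and 11.4% in oligodendrocytes, and 47.1% of the 17 genes at precursor-led members were higher in astrocytes. For NN-Endo-VLMC, 0 of 3 genes were higher by edgeR and 0 by DESeq2, where 11% of all genes were called.

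**Figure D4:**
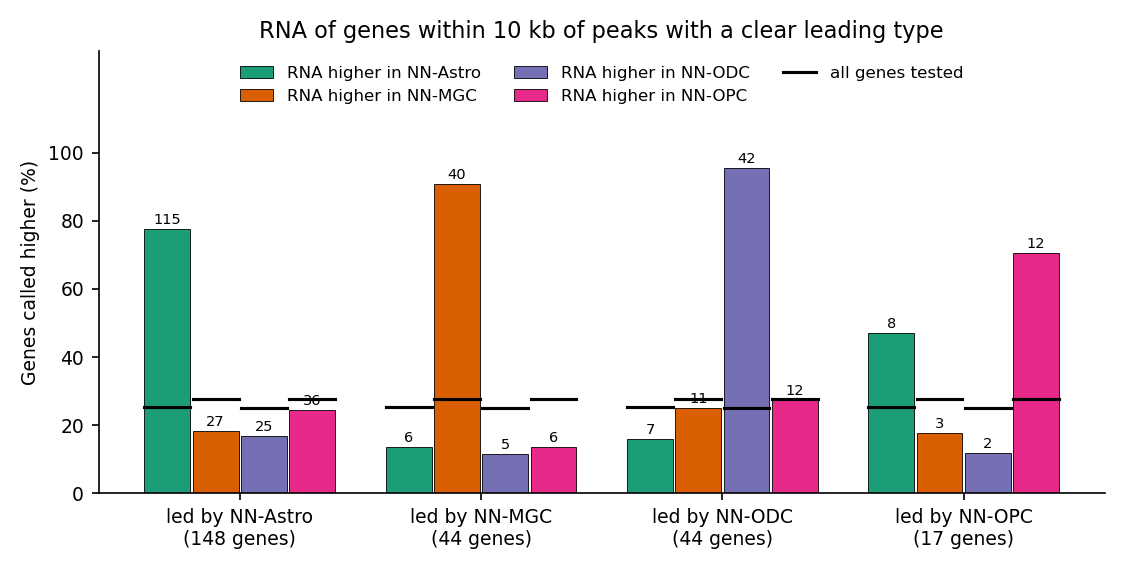
Percent of tested genes with higher RNA in a glial type than in the mean of the other non-neuronal types, for genes within 10 kb of members with a clear leading type on the x axis; numbers are genes called and black lines are the share over all genes tested. The matching type is the highest bar in each group, at 77.7% for astrocytes, 90.9% for microglia, 95.5% for oligodendrocytes and 70.6% for precursors.

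At astrocyte-led members the genes with the largest RNA differences included Acsbg1, an acyl-CoA synthetase, Atp13a4, a P-type ATPase, Lix1, Itih3, a hyaluronan-binding protein, and Rfx4, a transcription factor. Acsbg1 RNA in astrocytes was 316 and 309 CPM in the DBA libraries, against 286 and 355 CPM in the BL6 libraries, and its member had 43.6 CPM in astrocytes and at most 6.17 CPM in any other of the 6 types. The strains overlapped. Its log2 difference to the other types was 5.99 ± 0.18 (SE, adjusted p = 2.84e-23 by edgeR). The other 4 genes differed by 5.56 to 5.91.

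At microglia-led members the genes were Bin2, a membrane-curving protein, Nckap1l, a subunit of the WAVE actin complex, Arhgap45, a GTPase-activating protein, Cd84, a receptor of leukocytes, and Slfn8, of the Schlafen family. Arhgap45 RNA in microglia was 1046 and 1054 CPM in the DBA libraries, against 915 and 1206 CPM in the BL6 libraries. Both DBA values lay between the BL6 values. Its log2 difference to the other types was 9.02 ± 0.17 (SE, adjusted p = 7.21e-32 by edgeR), and its member had 32.8 CPM in microglia from 49 counts. The member nearest to Bin2, whose log2 difference of 9.73 was the largest of the 5, had 10.1 CPM in microglia from 15 counts.

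At oligodendrocyte-led members the genes were Insc, an adaptor of spindle orientation, Opalin, a membrane protein of myelin, Ermn, Fa2h, which hydroxylates myelin lipids, and Mag. Mag RNA in oligodendrocytes was 1536 and 1379 CPM in the DBA libraries, against 1231 and 1550 CPM in the BL6 libraries, and the strains overlapped. Its log2 difference to the other types was 6.77 ± 0.27 (SE, adjusted p = 1.73e-13 by edgeR). At precursor-led members they were Myt1, a zinc finger factor, Sox6, Cacng4, an AMPA receptor auxiliary subunit, C1ql1 and Gpt2, an alanine aminotransferase. Myt1 RNA in precursors was 346 and 338 CPM in the DBA libraries, against 366 and 348 CPM in the BL6 libraries, with a log2 difference to the other types of 7.97 ± 0.21 (SE, adjusted p = 9.07e-23 by edgeR). Its member, 111 bases from the start, had 66.0 CPM in precursors and at most 8.96 CPM in any other type.

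Few members were called different between strains. With 2 libraries per strain and few counts at many members, a member that was not called may still differ. In the non-neuronal sum 2466 members could be tested and 2 (0.0811%) were called, both higher in DBA, where 0.192% of all 30762 peaks tested were called and 0.117% were called higher. At an unadjusted p under 0.05 there were 125 members (5.07%), 12 higher and 113 lower in DBA, against 4.57% of all peaks tested. The median log2 difference of members was -0.20, against 0.00 over all peaks. Astrocyte counts were fewest in DBA library 2, as given above, and with astrocytes left out of the sum the median was -0.15. It was 0.03 without DBA library 2, -0.63 without DBA library 3, -0.08 without BL6 library 2 and -0.34 without BL6 library 3. In other fits it was -0.14 in precursors, -0.10 in microglia, -0.10 in inhibitory and -0.01 in excitatory nuclei. Without DBA library 3, which leaves DBA library 2 as the lone DBA library, 146 members (5.3%) were called, where 1.05% of all peaks were. Of these, 139 were lower, and 134 of those 139 were led by astrocytes. Without DBA library 2, 9 members (0.288%) were called, where 0.285% of all peaks were. Without BL6 libraries 2 or 3, 2 and 3 were called. In these fits the lone library is taken to vary like the others.

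The member at chr1:153414044-153415555, which covers the start of E330020D12Rik, a gene with a provisional name, was more accessible in DBA. In the non-neuronal sum it had 67 and 87 counts (45.6 and 54.4 CPM) in the DBA libraries, against 4 and 18 counts (3.27 and 9.74 CPM) in the BL6 libraries. Both DBA libraries lay above both BL6 libraries. The log2 difference was 2.84 ± 0.35 (SE, adjusted p = 6.70e-04 by edgeR). In microglia alone it had 94.1 and 152 CPM in the DBA libraries, against 11.6 and 26.04 CPM in the BL6 libraries, a log2 difference of 2.66 (adjusted p = 1.76e-05 by edgeR).

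The same peak differed in neurons, by 1.79 on the log2 scale in excitatory and by 2.16 in inhibitory nuclei. Excitatory nuclei had 10.2 and 11.1 CPM in the DBA libraries, against 3.22 and 3.13 CPM in the BL6 libraries. The non-neuronal level was thus at least 4 times the excitatory level in both DBA libraries but in neither BL6 library. The peak was a member through its DBA counts and was not non-neuronal-specific by this ratio in BL6. The strain difference in non-neuronal nuclei exceeded that in neurons by 0.91 ± 0.44 (SE, adjusted p = 1 by edgeR), which was not a call. RNA of E330020D12Rik in non-neuronal nuclei was 117 and 97.5 CPM in the DBA libraries, against 48.0 and 44.5 CPM in the BL6 libraries. It rose in DBA, by 1.33 ± 0.13 (SE, adjusted p = 7.84e-05 by edgeR) on the log2 scale. Both DBA libraries were above both BL6 libraries.

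The other called member, at chr9:24541914-24542240, lay 38.8 kb from the start of Dpy19l1, a mannosyltransferase gene. It had 34.0 and 36.9 CPM in the DBA libraries, against 6.54 and 5.95 CPM in the BL6 libraries, a log2 difference of 2.53 ± 0.36 (SE, adjusted p = 0.00236 by edgeR). The groups did not overlap. Excitatory nuclei had 8.67 and 6.89 CPM in the DBA libraries, against 1.69 and 1.11 CPM in the BL6 libraries. Inhibitory nuclei had 6.68 and 6.77 CPM in the DBA libraries, against 1.99 and 1.34 CPM in the BL6 libraries. The rule's ratio to both classes was met in DBA library 3 and BL6 library 3, but in neither library 2. Pooled over BL6 alone the ratio to inhibitory nuclei was too low, so this peak was a member through its DBA counts. It also differed in excitatory nuclei, by 2.54 on the log2 scale, and in inhibitory nuclei, by 2.08, and the difference between non-neuronal nuclei and neurons was 0.12 ± 0.52 (SE, adjusted p = 1 by edgeR). Dpy19l1 RNA was 59.3 and 53.0 CPM in the DBA libraries, against 77.7 and 63.7 CPM in the BL6 libraries (log2 difference -0.22, adjusted p = 0.413 by edgeR), which was not a call.

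**Figure D5:**
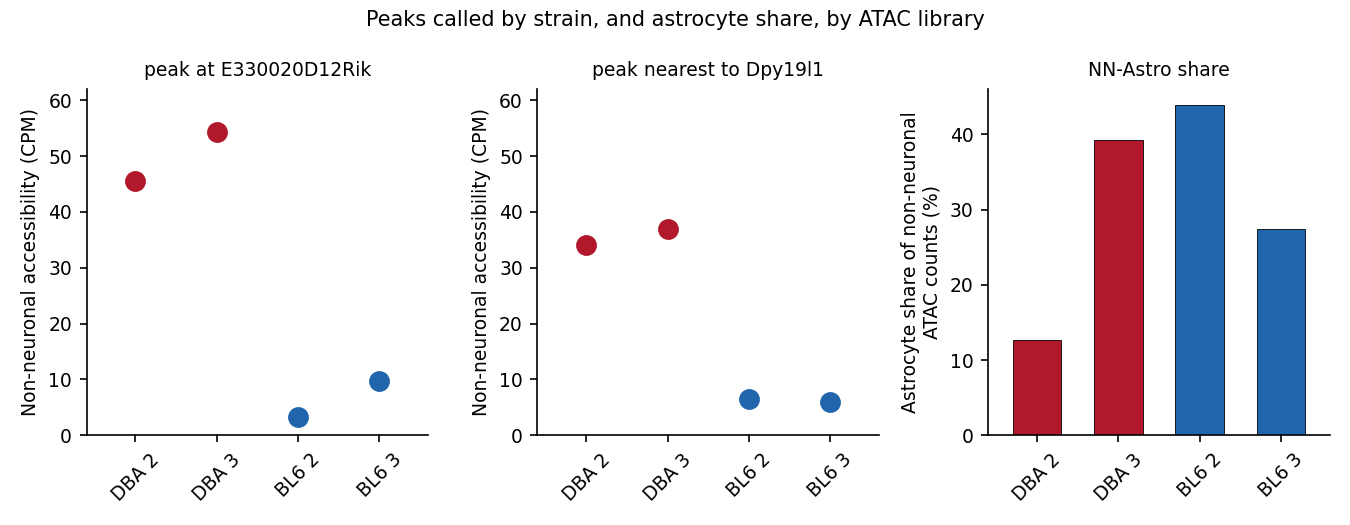
Non-neuronal accessibility in CPM of the 2 members called by strain (left and middle), and astrocyte share of non-neuronal ATAC counts in percent (right), for each DBA and BL6 library. Both DBA libraries lie above both BL6 libraries at the called members, and DBA library 2 has the lowest astrocyte share at 12.7%.

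Single types gave 1 or 0 called members. In microglia 130 members were tested and 1 was called (0.769%), the peak at E330020D12Rik, where 0.232% of all peaks were called. In precursors 421 were tested and 0 were called by edgeR or DESeq2, where 0.127% of all peaks were called. At an unadjusted p under 0.05 there were 25 precursor members (5.94%), against 4.78% of all peaks. In excitatory nuclei 81 of 3813 members (2.12%) were called, where 4.93% of all peaks were. In inhibitory nuclei 81 of 3789 (2.14%) were called, where 3.47% of all peaks were. The rule chose members for low neuronal levels, which makes calls in neurons harder. These shares therefore do not show that members vary less between strains in neurons. The strain by class difference gave 0 calls among all 270840 peaks by edgeR, which is 0% of them, with 101 members (2.59%) at an unadjusted p under 0.05, against 2.31% of all peaks. Astrocytes and oligodendrocytes were not tested alone, since a type needed 10 nuclei in every library and there were 7 astrocyte nuclei in DBA library 2 and 9 oligodendrocyte nuclei in BL6 library 2.

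Members close to the threshold of the strain test are given as values. A member 3.94 kb from Plg, the plasminogen gene, had 3 and 3 counts in the DBA libraries, against 21 and 21 counts in the BL6 libraries (adjusted p = 0.0853 by edgeR). A member on chromosome 8 had 0 and 0 counts in DBA, against 11 and 20 counts in BL6 (adjusted p = 0.109 by edgeR). Neither was called.

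Some genes at members differed in RNA between strains. Of genes within 10 kb of a member and counted in both strains, 82 of 731 (11.2%) were called in non-neuronal nuclei, where 8.25% of all 17165 genes were called. Of these, 35 were higher and 47 lower in DBA, where 3.29% of all genes were called higher and 4.96% lower. Slfn8 RNA in microglia was 875 and 647 CPM in the DBA libraries, against 66.0 and 57.2 CPM in the BL6 libraries. It rose in DBA in the non-neuronal sum by 3.26 ± 0.26 on the log2 scale (SE, adjusted p = 2.60e-04 by edgeR). The member at the start of Slfn8 had 5 and 19 counts in the DBA libraries, against 9 and 8 counts in the BL6 libraries (log2 difference 0.48 ± 0.62 SE, adjusted p = 0.9995 by edgeR), so it was not called and its strains overlapped. Slfn8 has close relatives in the same gene cluster, among which reads can be split, so its RNA values are uncertain.

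Other named genes changed as well. Itih3 rose in DBA by 0.69, Lix1 by 0.66, Atp13a4 by 0.55, Slc7a10 by 0.54 and Sox6 by 0.41 on the log2 scale, with adjusted p = 0.00655, 0.0319, 0.00972, 0.0191 and 0.0384 by edgeR. In DBA Tmem119 fell by 0.91 and Tmbim1 fell by 0.46 (adjusted p = 0.0108 and 0.0478 by edgeR). Csf1r had 100 and 74.2 CPM in DBA, against 132 and 118 CPM in BL6, and was not called (adjusted p = 0.145 by edgeR). These are sums over types, and astrocytes gave 50.9% and 54.4% of non-neuronal RNA counts in DBA libraries 2 and 3, against 42.8% and 48.6% in BL6 libraries 2 and 3. Fewer cells of a type and less RNA per cell cannot be told apart in these sums. Within astrocytes Itih3 RNA was 229 and 219 CPM in the DBA libraries, against 145 and 172 CPM in the BL6 libraries. Lix1 RNA there was 371 and 418 CPM in DBA, against 276 and 330 CPM in BL6, and Atp13a4 RNA was 385 and 362 CPM in DBA, against 317 and 316 CPM in BL6. Both DBA libraries were above both BL6 libraries for these 3 genes, with no test within the type. Sox6 RNA within precursors was 1716 and 1636 CPM in DBA, against 1712 and 1722 CPM in BL6, and the strains overlapped. Values by library within a type are not given here for Slc7a10, Tmem119 and Tmbim1.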

How the data were processed

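The ATAC table holds counts per peak and the RNA table counts per gene. In both, the authors had added up the nuclei of a cell type within a library before they deposited the counts. The deposited tables of nuclei give counts of nuclei per type and library. Per the submitters' processing notes, Cell Ranger 6.0.2 with Seurat 4.0.5 handled the RNA, Cell Ranger ATAC 2.0.0 handled the ATAC, and the build was mm10. Filters on nuclei, doublet treatment, the peak caller and what an ATAC count is (fragment or insertion) are not given in the sources used here. Doublets were not sought, since the values are sums. Cell types are as the authors named them. The 16 methylation samples were not analysed here.

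The members and the gene lists were chosen with earlier results of these data known. Members were found from pooled class sums scaled to 1000000 counts. Strain, class and type differences were tested on the whole tables with edgeR 4.0.16 (robust quasi-likelihood test, TMM, filterByExpr with a minimum count of 10, Benjamini-Hochberg adjustment, calls at adjusted p under 0.05). Library was a block where classes or types of one library were compared. The strain test of RNA started from the 22155 genes with 10 or more counts in each strain, of which 17165 passed the filter. These fits were run on simulated data in which every peak or gene had the same set dispersion between libraries. Real spread need not match it, so that check does not give the power of the tests here. Gene starts came from RefSeq on GRCm38.p6: 25748 genes had a start, and for 7325 without a strand the nearer end was used. Of 33073 annotated genes 21924 matched the RNA table. Motifs and GC content were computed for RefSeq promoters and not for peaks.

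Named peaks were the 5 highest per leading type, members within 2 kb of marker starts, members called by strain and those next to a threshold. Named genes were the 5 within 10 kb of clear members with the largest RNA difference, among genes whose mean log2 CPM reached 5, passing over provisional symbols. The Plg and chromosome 8 peaks, the genes with the most members and the microRNAs were chosen after their values were seen. Alternatives were RLE factors, total counts, DESeq2 1.42.0, dropping the filter, leaving out each library, library-number blocks, other distances, other thresholds and 200-base windows.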

Additional observations from a re-analysis of the deposited data

How the results depend on the processing

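A ratio of 6 in the rule left 2171 members. Other thresholds, equal weights and single strains gave counts within 1.5 times 3896, including 5844 at a ratio of 3. Single libraries gave 4428 to 5935, and leaving out each library gave 3778 to 4196. The number of members with a clear lead among 6 types was 1186 at 3 times the next type. Strain calls in the non-neuronal sum were 9 with no filter, 2 to 146 with each library left out, and 2 with RLE factors, total counts, DESeq2 or astrocytes left out. Both called members were called under every setting tried. In microglia, leaving out each library gave 1 to 3 calls. The library number as a replicate block gave 2 calls in the non-neuronal sum and 1 in microglia. Same-numbered libraries correlated at -0.177 and the crossed block, chosen after the data were seen, gave 4 calls.

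Distance set how many genes were tested. Within 2 kb and 100 kb, genes higher in non-neuronal nuclei numbered 320 and 1029. Genes higher in the matching type numbered 56 and 255 for astrocytes, 21 and 93 for microglia, 18 and 106 for oligodendrocytes and 6 and 57 for precursors. With 200-base windows the share of promoters at members was 15.6% for ACAAAG, 15.3% for the NFI letters, 17.97% for CAGCTG and 0.339% for ETS, against 13.2%, 9.61%, 10.9% and 2.72% of all promoters. PU.1 letters at microglia-led members were then in 8.16%, against 2.09%. Depth limits single members: 1 count is 0.163 CPM in the non-neuronal sum and 0.539 to 1.14 CPM in a glial type.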

Other observations

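One member at a stress response gene, chosen after its values were seen, was open across glia. The member at the start of Nfe2l2, which encodes the oxidative stress factor NRF2, had 82.4 CPM in astrocytes, 88.4 CPM in microglia, 90.2 CPM in oligodendrocytes and 35.8 CPM in precursors, against 2.83 CPM in excitatory and 3.91 CPM in inhibitory neurons. Its RNA was 36.0 and 41.6 CPM in the DBA libraries, against 51.8 and 62.1 CPM in the BL6 libraries, and was not called between strains (adjusted p = 0.0872 by edgeR).

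Within astrocyte nuclei, astrocyte-led members took 2.16% and 5.47% of counts in DBA libraries 2 and 3, against 5.03% and 5.04% in BL6 libraries 2 and 3. The low value rests on 7 nuclei.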
